A study of Triticum aestivum with 45 samples.

Results

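Bread wheat spikelets carried 9 short runs of neighbouring genes whose RNA rose after a spray of methyl jasmonate (MeJA), a volatile form of jasmonic acid, which signals wounding and attack in plants. The runs were selected on earlier results for MeJA against water in these same libraries, so the MeJA values of their genes are given as a description, with no test. Every gene of the count table whose identifier fell inside a run was a member. The ranges of identifier numbers were 265200 to 266100 on chromosome 1A, 265800 to 266300 on 1D, 036900 to 038700 on 3B, 007800 to 008500 on 4A, 442900 to 443800 on 5B, 060600 to 061500 (the lower run) and 347700 to 348400 (the upper run) on 4B, and 107700 to 108500 (lower) and 311500 to 312700 (upper) on 7B. This gave 93 members of 110790 listed genes. Neighbours differ by 100 in these numbers, which follow the order of genes along the chromosome. The letters A, B and D name the 3 ancestral genomes of this hexaploid. The ranges on 1A and 1D are close in number, but whether their genes are copies of each other was not analysed here.

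Jasmonates act in plants by way of the receptor COI1, which removes JAZ repressor proteins and so frees MYC transcription factors to switch on target genes. Jasmonates are known for raising wound, defence and specialised metabolism genes, and they also have roles in flower opening and stamen development. Genes that sit side by side can be tandem copies of 1 ancestor or unlike enzymes of 1 pathway, and plant genomes hold both kinds. Here the identifiers were not paired with names or functions, so no role is given for any member, and no sequence is printed. Members of a run that are near-identical copies can share reads, and how such reads were counted is not given in the sources used here. For this reason the level of a single member is less certain than the sum over its run.

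Spikelets came from a pair of doubled haploid lines and from the Canadian spring wheat cultivar Superb. The line GS-1-EM0040, here DH1, has CIMMYT11 as its donor. GS-1-EM0168, here DH2, has CM82036, and each was crossed back to Superb, so all 3 genotypes share the Superb background. At anthesis, spikes were sprayed with MeJA, salicylic acid (SA, a hormone of pathogen defence), ethephon (which releases ethylene), each at 100 µM, or water, and were sampled at 8 h. Untreated spikes were sampled at 0 h. Each of the 15 groups had 3 libraries, with 6446374 to 17940396 counts per library and a median of 11251553. The labels give 5 plants per treatment group but do not say whether replicates were separate plants, so p-values measure only how far these samples differ, and that spread may be technical. A whole spikelet was sampled, so more RNA per cell and more cells of a type cannot be told apart.

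A pair of libraries stood apart from their labels. The 34 genes expressed in DH1 and nearly absent from the other genotypes summed to 27.1% of their DH1 level in Superb ethephon replicate 1, where the remaining Superb libraries held 1.17% to 2.00%. For DH2, 34 genes of the same kind summed to 13.7% of their DH2 level in DH1 ethephon replicate 1, against 0.513% to 1.39% in the other DH1 libraries. Results that rest on these libraries are given with and without them.

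Of the 93 members, 60 had enough reads to be tested, or 64.5%, against 56.9% of all listed genes. The other 33 were at or near 0, with 13 at 0 in all 45 libraries, a median of 2 counts over all libraries and a highest total of 219. These 33 had 153 counts summed over the 9 MeJA libraries, against 97 over the 9 water libraries. They had more counts after MeJA in 11 cases and fewer in 6. The filter keeps genes that are high in any group, so the tested members are not a sample of all members. The run on 3B had the most untested genes, 13 of 19, among them all those between place 6 and place 19. The run on 1D and the upper run on 4B were tested at every place, 6 of 6 and 8 of 8 genes.

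All 60 tested members were called higher after MeJA than after water in each genotype (edgeR, adjusted p under 0.05). The background of such calls was 16.3% of tested genes in DH1, 14.3% in DH2, 12.5% in Superb, and 9.57% in all 3. Since the runs were chosen on this contrast, nothing is read from that count. The median member changed by 4.43 (DH1), 3.64 (DH2) and 4.04 (Superb) on the log2 scale, against -0.04, 0.00 and 0.00 for all tested genes. In all 3 genotypes, 8 members reached a log2 fold change of 6 or more, against 0.235% of all tested genes. The members together took 0.271% to 0.828% of all counts in the 9 MeJA libraries and 0.0366% to 0.0695% in the 9 water libraries.

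The runs differed from each other in how far they were on without MeJA, as the plot of summed levels by library shows. Summed CPM is the sum over a run's members of counts scaled to library size (CPM, the edgeR unit), which counts reads rather than transcripts, as gene lengths were not used here. Runs are therefore compared by their folds. The log2 ratio of summed CPM, MeJA over water, averaged over genotypes, was 7.07 for the run on 5B and 5.26 for the upper run on 4B. It was 4.19 on 1D, 3.97 on 3B, 3.71 for the lower run on 7B, 3.43 on 1A, 3.41 for the upper run on 7B and 2.97 for the lower run on 4B. It was lowest on 4A, at 1.79. This order is of summed levels, and by the median member the upper run on 4B changed more than the run on 5B, as given below. The SD among replicate MeJA libraries was 0.16 to 1.18 on the same scale, and most neighbours in this order lie within that spread. All runs were measured in the same libraries, so this SD is not the error of a difference between runs, which was not tested.

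**Figure D1:**
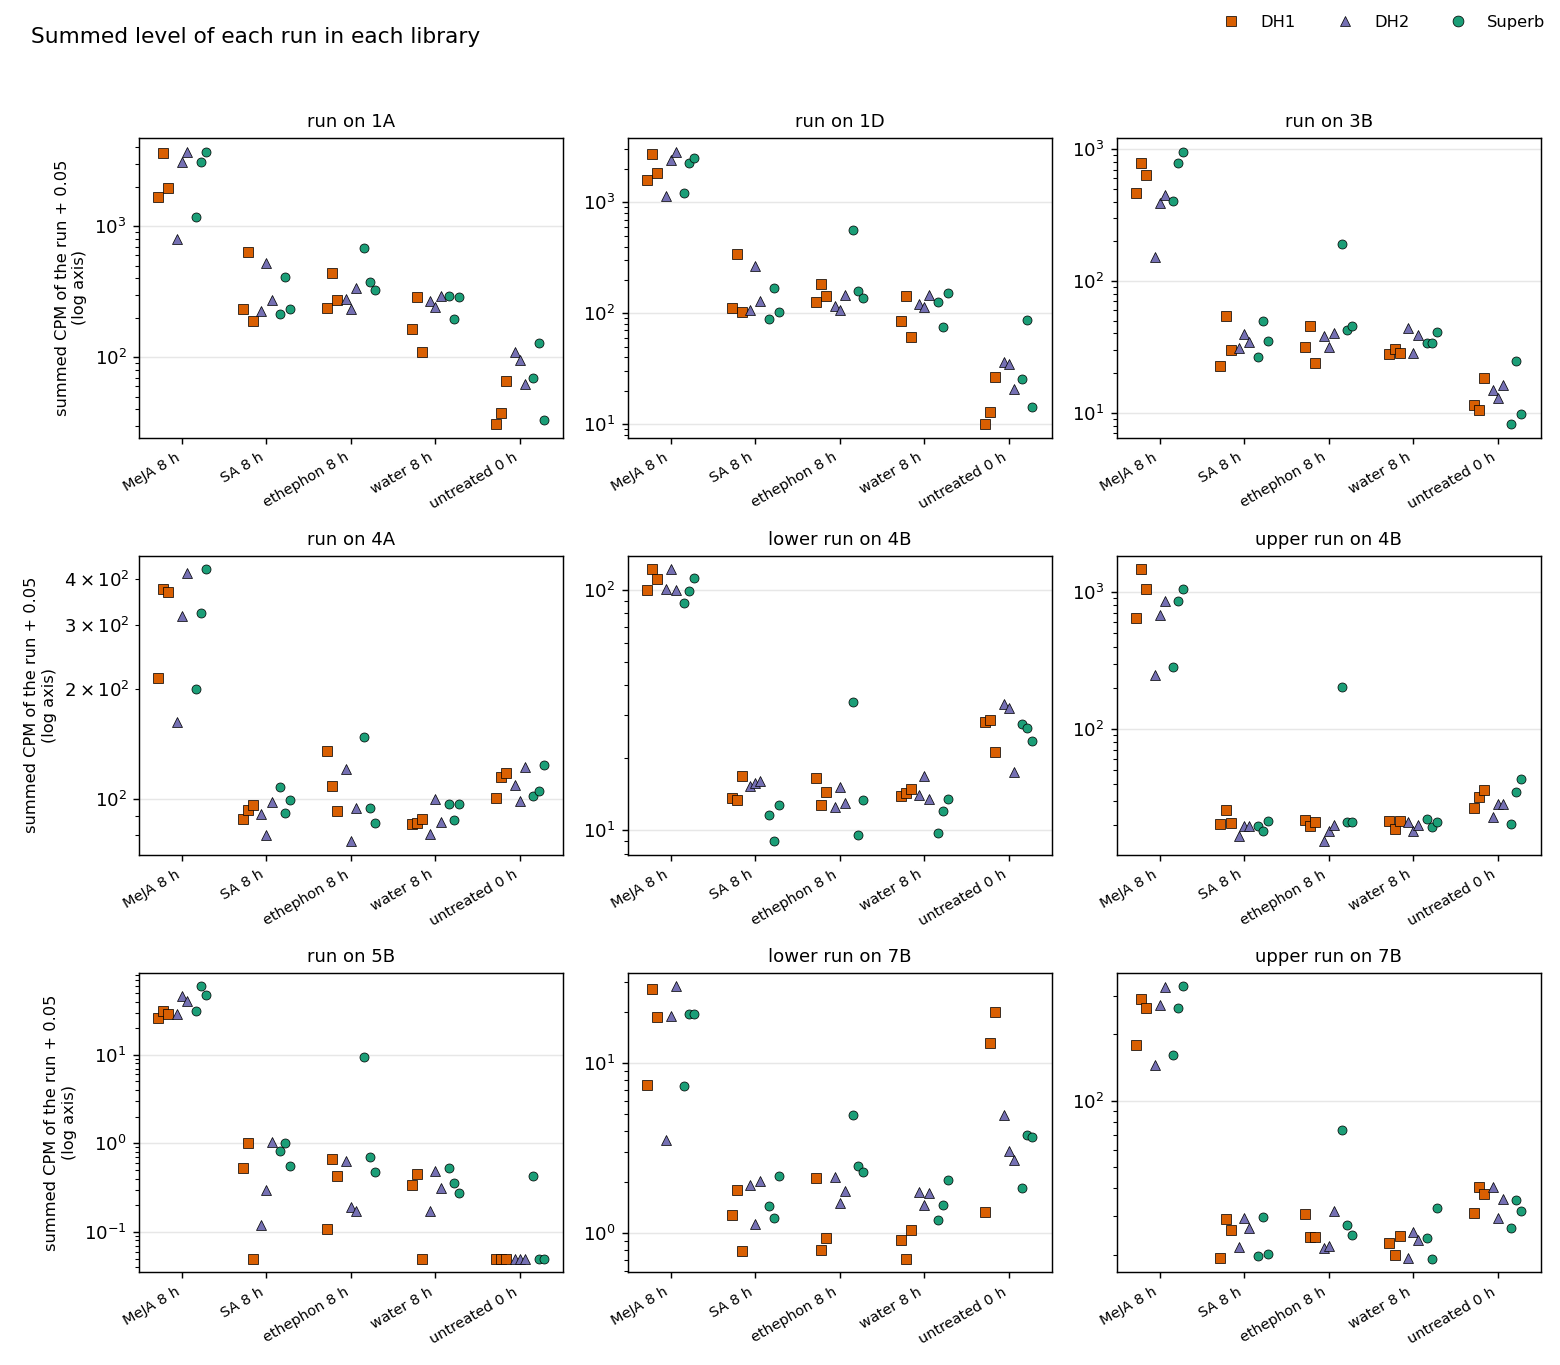
Summed CPM (plus 0.05, log axis) of each run in each of the 45 libraries, by treatment and genotype; each symbol is 1 library. Every MeJA library lies above the water libraries of its genotype in each run, the run on 5B lies at the floor of the plot in 8 of 9 untreated libraries, and the highest ethephon symbol in every panel is Superb replicate 1.

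The run on 5B was the closest to silent without MeJA. Its 10 listed genes, 7 of them tested, summed to 25.8, 31.6 and 28.8 CPM in DH1 after MeJA, against 0.287, 0.397 and 0 CPM after water. In DH2 they summed to 28.6, 45.9 and 40.9 CPM after MeJA, against 0.122, 0.441 and 0.263 CPM after water. In Superb they summed to 31.1, 59.2 and 47.7 CPM after MeJA, against 0.479, 0.306 and 0.222 CPM after water. The lowest MeJA library was far above the highest water library in each genotype, and 8 of the 9 untreated libraries held no read of the run at all. The most counted member, TraesCS5B01G442900, had 13.3, 16.0 and 13.9 CPM in DH1 MeJA libraries, against 0, 0.0662 and 0 CPM after water. TraesCS5B01G443100 had no count in any water library, and its MeJA level was at least 38.2-fold higher in DH1, 60.1-fold in DH2 and 56.4-fold in Superb, taking 3 counts over the group as the limit of a count of 0. The median log2 fold change of the run with such genes at their bound was 5.33 in DH1, 5.91 in DH2 and 5.16 in Superb. Without TraesCS5B01G442900, which held 48.8% of the run's MeJA reads, the log2 ratio of the run was 6.44.

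The upper run on 4B had a step inside it. Its members at places 1 and 2 averaged 8.73 and 10.6 CPM over the 9 water libraries and their log2 fold changes were 0.87 to 1.17. They made up nearly all of the run's summed water level, so its summed ratio is below the change of most members. The median tested member had a fitted log2 fold change of 10.26 (DH1), 9.56 (DH2) and 9.02 (Superb), against 5.73, 7.56 and 7.23 on 5B. The 6 members at places 3 to 8 averaged 23.8 to 242.8 CPM over the 9 MeJA libraries, against 0 to 0.278 CPM over the 9 water libraries. Fitted log2 fold changes of these 6 ran from 8.49 to 11.61. The step up from place 2 to place 3 was the widest between adjacent tested genes in any run. TraesCS4B01G348200 had 207.6, 450.8 and 351.9 CPM after MeJA in DH1, against 0.191, 0.0662 and 0.301 CPM after water. The same gene had 72.8, 188.7 and 257.7 CPM after MeJA in DH2, against 0.364, 0.441 and 0.421 CPM after water. In Superb it had 77.5, 261.8 and 316.6 CPM after MeJA, against 0.384, 0 and 0.333 CPM after water. The groups were far apart in all 3 genotypes, while the 3 MeJA libraries of a genotype differed widely, with replicate 1 the lowest. TraesCS4B01G348300, next to it, was similar, with 162.3, 381.3 and 262.6 CPM in DH1 after MeJA, against 0.478, 0.199 and 0.301 CPM after water. The member at place 3 had 0 counts in all 9 water libraries, so that its MeJA level was at least 393-fold higher in DH1, 261-fold in DH2 and 209-fold in Superb.

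**Figure D2:**
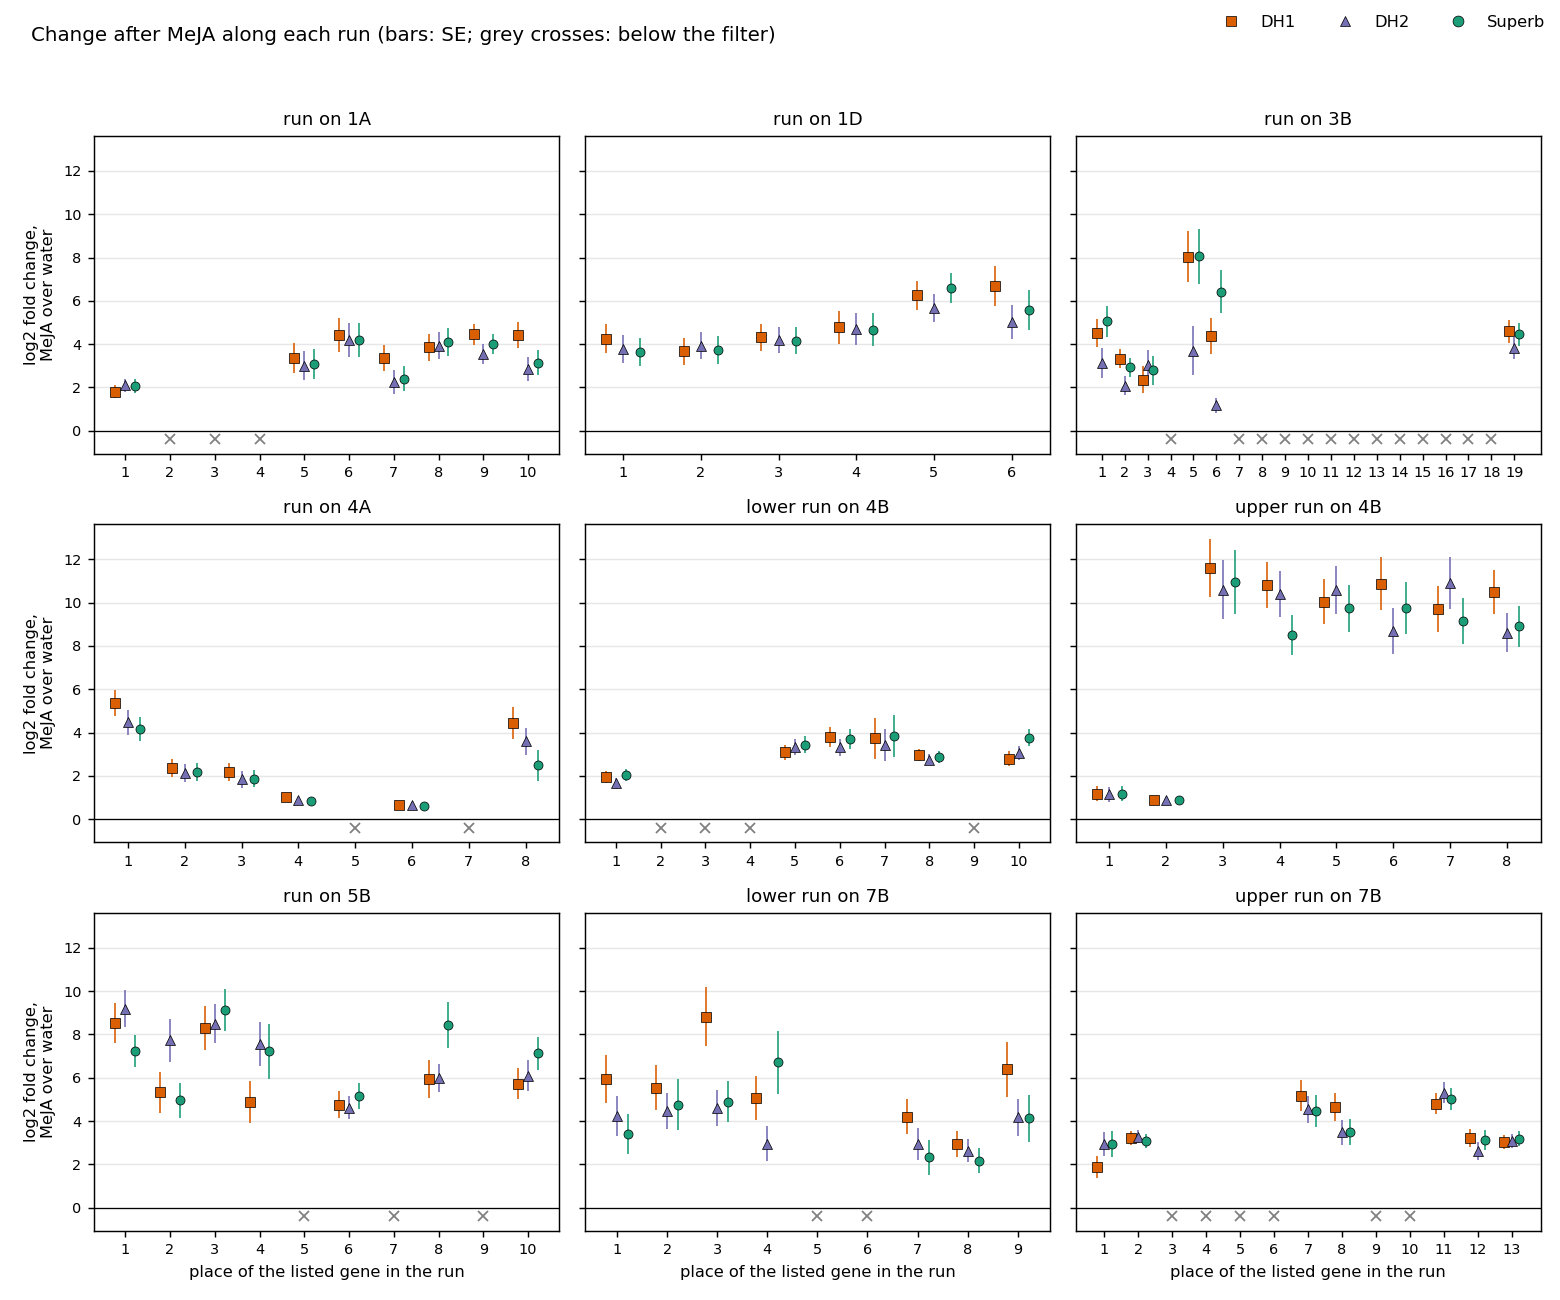
Log2 fold change of each tested member, MeJA over water, against its place in the run, by genotype; bars are SE of the fit, and grey crosses mark listed genes below the filter. The upper run on 4B steps up between places 2 and 3, the run on 4A declines over places 1 to 6, and values for genes with 0 counts after water depend on the fit and are not bounds.

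The run on 4A had the smallest changes and they were graded by place. The fold was largest at place 1, where TraesCS4A01G007800 had 53.9, 92.5 and 78.6 CPM in DH1 after MeJA, against 1.72, 1.19 and 2.71 CPM after water. Its mean log2 fold change over genotypes was 4.67. At place 2, TraesCS4A01G007900 had 67.2, 142.3 and 164.1 CPM in DH1 after MeJA, against 18.1, 25.0 and 30.1 CPM after water. Here the groups were closer and did not overlap. At place 6 the log2 fold change was only 0.61 to 0.67, from a high level: 69.0 CPM over the 9 MeJA libraries, against 44.1 CPM over the 9 water libraries. The member at place 8 broke the gradient, at 4.44 (DH1), 3.59 (DH2) and 2.496 (Superb). Without MeJA the run was as high at 8 h as at 0 h or a little lower, with a summed level after SA of 0.833 (DH1), 0.813 (DH2) and 0.903 (Superb) times that of untreated spikelets.

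The runs on 1A and 1D held the most counted members. TraesCS1A01G265600 had 952.6, 1875 and 934.9 CPM in DH1 after MeJA, against 98.4, 195.9 and 69.2 CPM after water. In DH2 it had 487.3, 1741 and 1908 CPM after MeJA, against 174.3, 143.3 and 197.2 CPM after water. Superb had 716.7, 1730 and 2034 CPM after MeJA, against 198.6, 130.9 and 199.1 CPM after water. The MeJA libraries were above all water libraries, and the water libraries were themselves well above the untreated ones. TraesCS1D01G265800 showed the same layers, with 594.6, 1215 and 678.3 CPM after MeJA, 36.2, 66.3 and 27.3 CPM after water, and 2.48, 2.07 and 8.86 CPM in untreated spikelets of DH1. TraesCS1D01G266200, further along the run on 1D, had 334.4, 403.5 and 433.6 CPM in DH1 after MeJA, against 6.50, 4.63 and 4.21 CPM after water and 3.86, 4.42 and 7.39 CPM in untreated spikelets. For that gene water and untreated libraries overlapped in DH1 and in Superb. In DH2 they did not, with 5.59, 6.36 and 4.47 CPM after water, against 11.15, 7.06 and 8.89 CPM untreated. Its log2 fold change of MeJA over water was 6.26 (DH1), 5.68 (DH2) and 6.60 (Superb). This was larger than that of its neighbours at places 1 to 4, at 3.64 to 4.78. At place 6 it was 6.68 (DH1), 5.02 (DH2) and 5.56 (Superb).

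**Figure D3:**
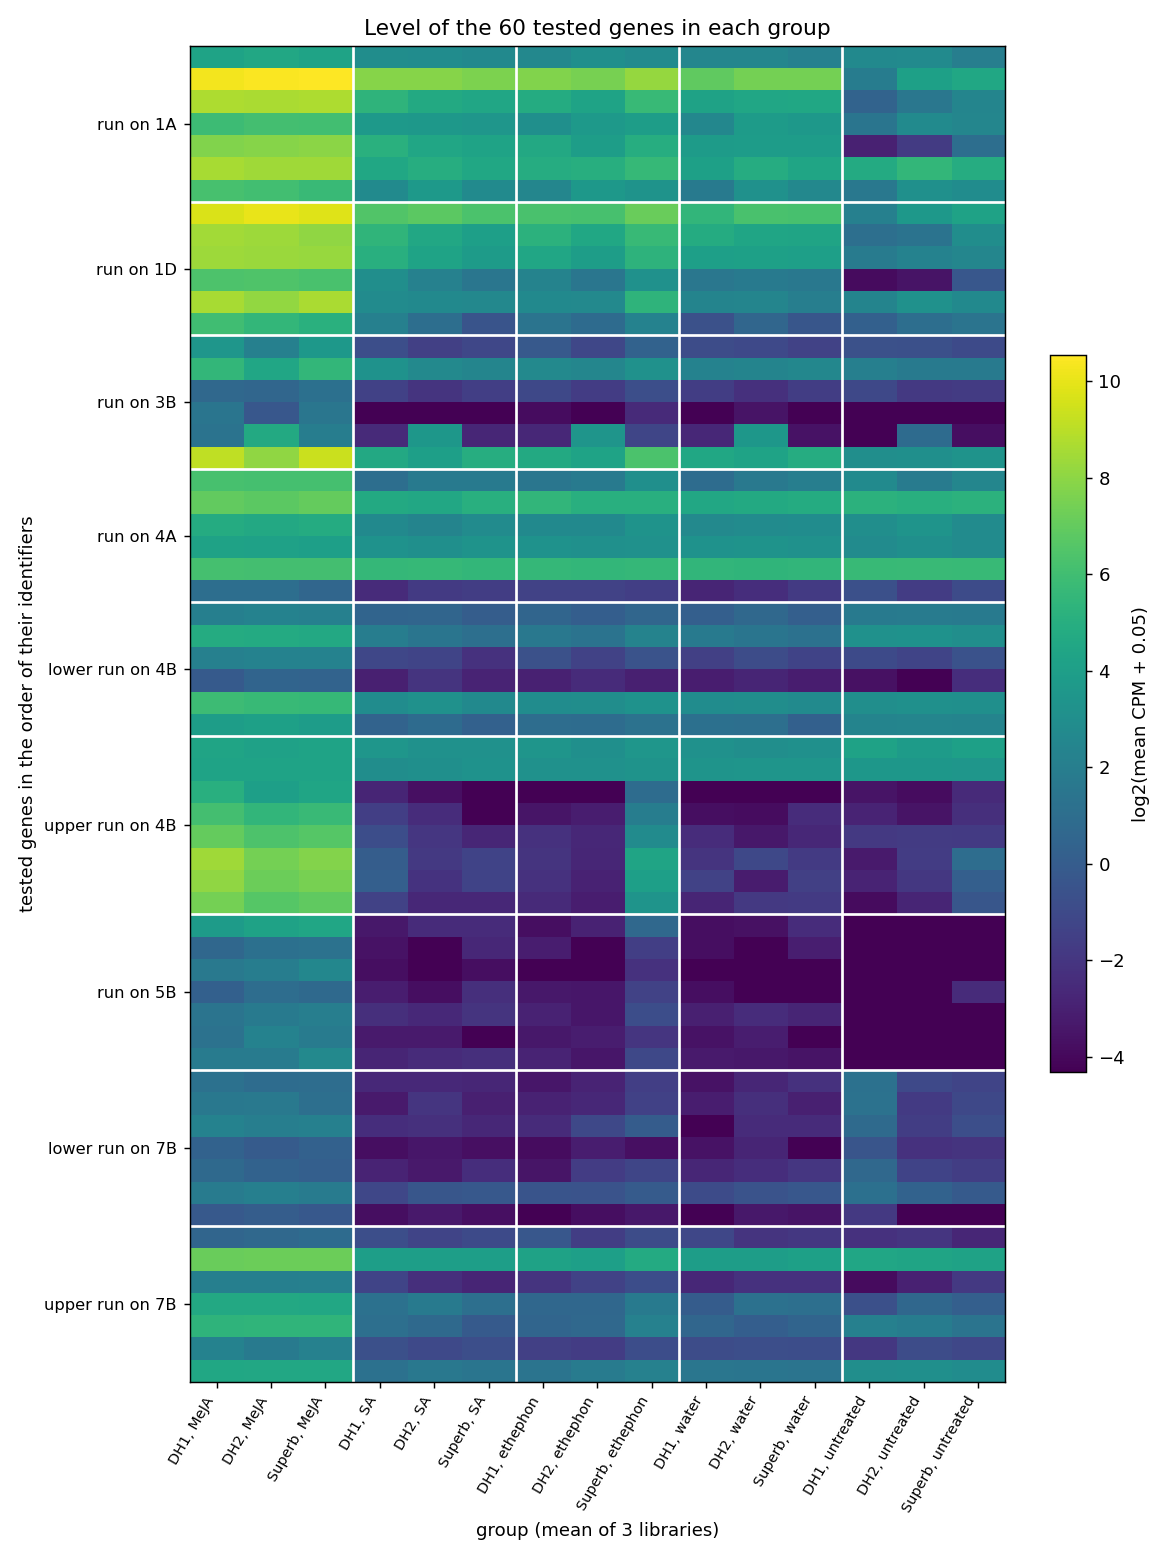
Mean level of each of the 60 tested members in each of the 15 groups, as log2 of mean CPM plus 0.05, with members in the order of their identifiers within each run. The MeJA columns are the brightest in nearly every row, and the untreated columns are darker than water in parts of the runs on 1A and 1D. In the run on 3B, the row of TraesCS3B01G037400 is brighter in DH2 than in DH1 and Superb at each treatment.

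The change over 8 h without MeJA was tested with SA-sprayed against untreated spikelets, which share no library with the contrast that chose the members. Time, the spray itself and SA cannot be told apart in this contrast. Higher calls numbered 10 of 60 members in DH1, 8 in DH2 and 5 in Superb, where 12.9%, 12.8% and 13.4% of all tested genes were called higher. Lower calls numbered 12 in DH1, 5 in DH2 and 5 in Superb, where 11.9%, 14.3% and 13.2% of all tested genes were called lower. The lower calls of DH1 include 6 members of the lower run on 7B, and no test set these shares against the background. In all 3 genotypes, 4 members were called higher and 4 lower, against 8.15% and 8.19% of all tested genes. In no genotype were 36 members called, but the share of such genes over all tested genes was not taken. Members could pass the filter through MeJA libraries alone, and 4 had fewer than 10 counts over the 18 untreated and SA libraries, against 0.155% of all tested genes. Nothing is therefore read from the 36.

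No run had members called in both directions over 8 h with SA, but few members were called in most runs. The share of all tested genes called in any genotype was not taken, so nothing is read from the sizes of the counts by run. Called in any genotype were 6 members in the lower run on 7B, 4 on 1A, 4 on 1D and 3 in the lower run on 4B. There were 2 on 3B and 2 in the upper run on 4B. On 4A, on 5B and in the upper run on 7B there was 1 each, so nothing can be read there on agreement between members. The call on 5B was in DH1, where no member of the run had more than 5 counts in an SA library and all untreated libraries had 0. All 4 members called higher in every genotype were on 1A (3) and 1D (1). TraesCS1A01G265900 had 17.9, 66.9 and 18.0 CPM in DH1 after SA, against 0.184, 0 and 0.0564 CPM in untreated spikelets. In DH2 it had 13.5, 36.3 and 17.3 CPM after SA, against 0.223, 0.519 and 0 CPM untreated. Superb had 14.1, 28.0 and 16.3 CPM after SA, against 0.941, 4.87 and 0.127 CPM untreated. No untreated library reached an SA library, and the log2 fold change was 8.64 ± 1.13 (SE) in DH1 (edgeR adjusted p = 1.73e-07), 6.69 ± 1.03 in DH2 and 3.29 ± 0.71 in Superb. TraesCS1A01G265600 rose by 5.83 ± 0.82 in DH1, 3.79 ± 0.73 in DH2 and 3.10 ± 0.70 in Superb. On 1D, TraesCS1D01G265800 rose by 4.28 ± 0.69 in DH1, 3.18 ± 0.65 in DH2 and 2.06 ± 0.61 in Superb (edgeR adjusted p = 0.0107). TraesCS1D01G266100 had 2.95, 18.3 and 3.40 CPM in DH1 after SA, against 0, 0 and 0.0564 CPM untreated, and was called in both lines. In Superb it had 2.49, 3.62 and 2.26 CPM after SA, against 0.282, 1.93 and 0.0637 CPM untreated, and was not called there (edgeR adjusted p = 0.188). Within the run on 1D, the members at places 5 and 6 were called in no genotype, and within the run on 1A the same held for those at places 1, 9 and 10. A test of whether the change differs between genotypes called 0 of 60 members (edgeR, 5 at an unadjusted p under 0.05), against 0.019% of all tested genes. Nothing is read from that count, since few genes of any kind were called and 7 members, 6 of them on 5B, had 0 counts in all untreated libraries and an unadjusted p of 1.

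In the lower run on 4B the called members, 3 of 6 tested, were lower after SA than in untreated spikelets in every genotype. TraesCS4B01G061000 had 3.14, 2.34 and 6.05 CPM in DH1 after SA, against 8.17, 11.7 and 7.28 CPM untreated. In DH2 it had 3.54, 2.498 and 2.12 CPM after SA, against 11.7, 11.1 and 5.99 CPM untreated. In Superb it had 3.04, 1.85 and 1.38 CPM after SA, against 7.15, 9.02 and 8.28 CPM untreated. The groups did not overlap, and the gene fell by 1.31 ± 0.38 on the log2 scale in DH1, by 1.76 ± 0.38 in DH2 and by 1.92 ± 0.39 in Superb (edgeR adjusted p = 0.000273). TraesCS4B01G061500 fell by 2.01 ± 0.40 in DH1, 1.51 ± 0.37 in DH2 and 2.12 ± 0.39 in Superb. After MeJA this gene stood above its untreated level, with 16.7, 15.8 and 13.5 CPM in DH1 after MeJA, against 5.78, 5.45 and 4.01 CPM untreated. TraesCS4B01G060600 overlapped, with 3.46, 4.84 and 4.21 CPM in DH1 after MeJA, against 3.76, 3.01 and 3.27 CPM untreated. TraesCS4B01G061300, the most counted member of this run, had 48.8, 65.7 and 59.4 CPM in DH1 after MeJA, against 7.45, 7.15 and 7.52 CPM after water, and showed no call over 8 h without MeJA.

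**Figure D4:**
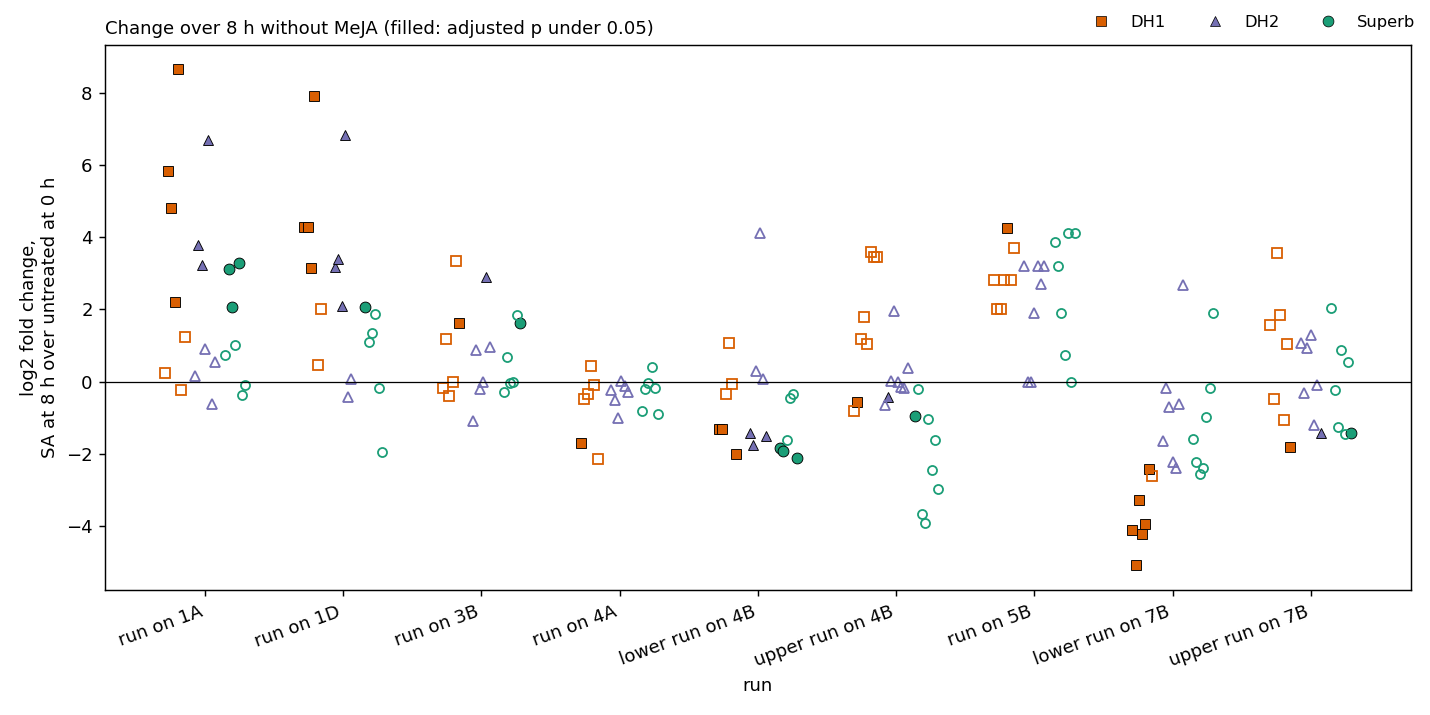
Log2 fold change of each tested member, SA at 8 h over untreated at 0 h, by run and genotype; filled symbols have an adjusted p under 0.05. Filled symbols are above 0 on 1A, 1D, 3B and 5B, and below 0 on 4A, in the 2 runs on 4B and in the 2 runs on 7B. Those on 4A, on 5B and in the upper run on 7B belong to 1 member each. On 5B no member had more than 5 counts in a DH1 SA library.

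The upper run on 7B was led by TraesCS7B01G311600, with 111.4, 164.2 and 157.7 CPM in DH1 after MeJA, against 15.5, 13.4 and 17.7 CPM after water. DH2 had 86.0, 162.9 and 194.5 CPM after MeJA, against 12.9 to 17.9 CPM after water, and Superb had 95.4, 154.1 and 197.1 CPM after MeJA, against 17.5, 13.1 and 22.2 CPM after water. This gene held 59.2% of the run's MeJA reads. TraesCS7B01G312500 started lower and changed further, with 32.2, 47.0 and 42.1 CPM in DH1 after MeJA, against 1.91, 1.19 and 1.30 CPM after water. Its log2 fold change was 4.80 (DH1), 5.31 (DH2) and 5.03 (Superb). The last member of this run was the only one of it called over 8 h with SA, and it fell in all 3 genotypes, by 1.80 ± 0.36 in DH1, 1.43 ± 0.35 in DH2 and 1.41 ± 0.35 in Superb on the log2 scale.

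The lower run on 7B was the one in which untreated spikelets of 1 genotype stood apart. It summed to 7.36, 27.1 and 18.6 CPM in DH1 after MeJA, 1.24, 1.75 and 0.738 CPM after SA, and 1.29, 13.2 and 20.0 CPM in untreated spikelets. DH1 untreated replicates 2 and 3 thus lay within the range of the MeJA libraries, and replicate 1 within that of the SA libraries. In DH2 the run summed to 1.87, 1.08 and 1.99 CPM after SA, against 4.91, 3.01 and 2.65 CPM untreated. In Superb it summed to 1.40, 1.18 and 2.13 CPM after SA, against 1.79, 3.72 and 3.63 CPM untreated. In DH1, 6 of its 7 tested members were called lower after SA than untreated, and none was called in the other genotypes. TraesCS7B01G107800 had 0.0951, 0.0730 and 0 CPM in DH1 after SA, against 0, 2.54 and 4.52 CPM untreated, a fall by 5.08 ± 1.07 on the log2 scale (edgeR adjusted p = 0.000223). The 6 calls became 3 without DH1 untreated replicate 3 and stayed at 5 or 6 without any other of the DH1 untreated and SA libraries. The difference of this change between genotypes was not called for any member of the run, with unadjusted p of 0.0619 to 0.729. After MeJA, TraesCS7B01G107900 had 2.16, 6.91 and 4.95 CPM in DH1, against 0 CPM in the 3 water libraries, so that it was at least 55.4-fold higher.

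Line DH2 was called different from Superb at 1 member. Over untreated and SA libraries, which the choice of members did not use, 0 of 60 members were called between DH1 and Superb (edgeR, 6 at an unadjusted p under 0.05, 0 by DESeq2), against 2.03% of all tested genes. Between DH2 and Superb 1 of 60 was called, against 2.58% of all tested genes. Members could pass the filter through their MeJA libraries alone, and 6 (DH1) and 9 (DH2) of the 60 had fewer than 10 counts over the 12 libraries compared, against 0.418% and 0.368% of all tested genes. Nothing is therefore read from these counts against the background. That member, TraesCS3B01G037400, had 9.91, 11.1 and 13.7 CPM in DH2 after SA, against 0.156, 0.148 and 0 CPM in Superb. In untreated spikelets it had 3.12, 2.18 and 0 CPM in DH2, against 0, 0.0716 and 0 CPM in Superb. Its log2 fold change, DH2 over Superb, was 5.98 ± 0.63 (edgeR adjusted p = 1.02e-09). DH1 was at the level of Superb, with 0, 0.0730 and 0.295 CPM after SA. After water the gene had 13.3, 8.83 and 12.6 CPM in DH2, against 0, 0.102 and 0 CPM in Superb. Without MeJA it stayed at 0.156 CPM or less in Superb, except for 0.935 CPM in ethephon replicate 1, while every sprayed DH2 library had 8.49 CPM or more. After MeJA it had 12.5, 29.1 and 37.1 CPM in DH2, against 3.32, 3.76 and 4.58 CPM in Superb. Some members of this run below the filter also had counts mainly in DH2. TraesCS3B01G037600 had up to 4 counts in a DH2 library and 0 in all others. TraesCS3B01G037200 had up to 7 counts in a DH2 library and at most 1 in any other. These were not tested.

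**Figure D5:**
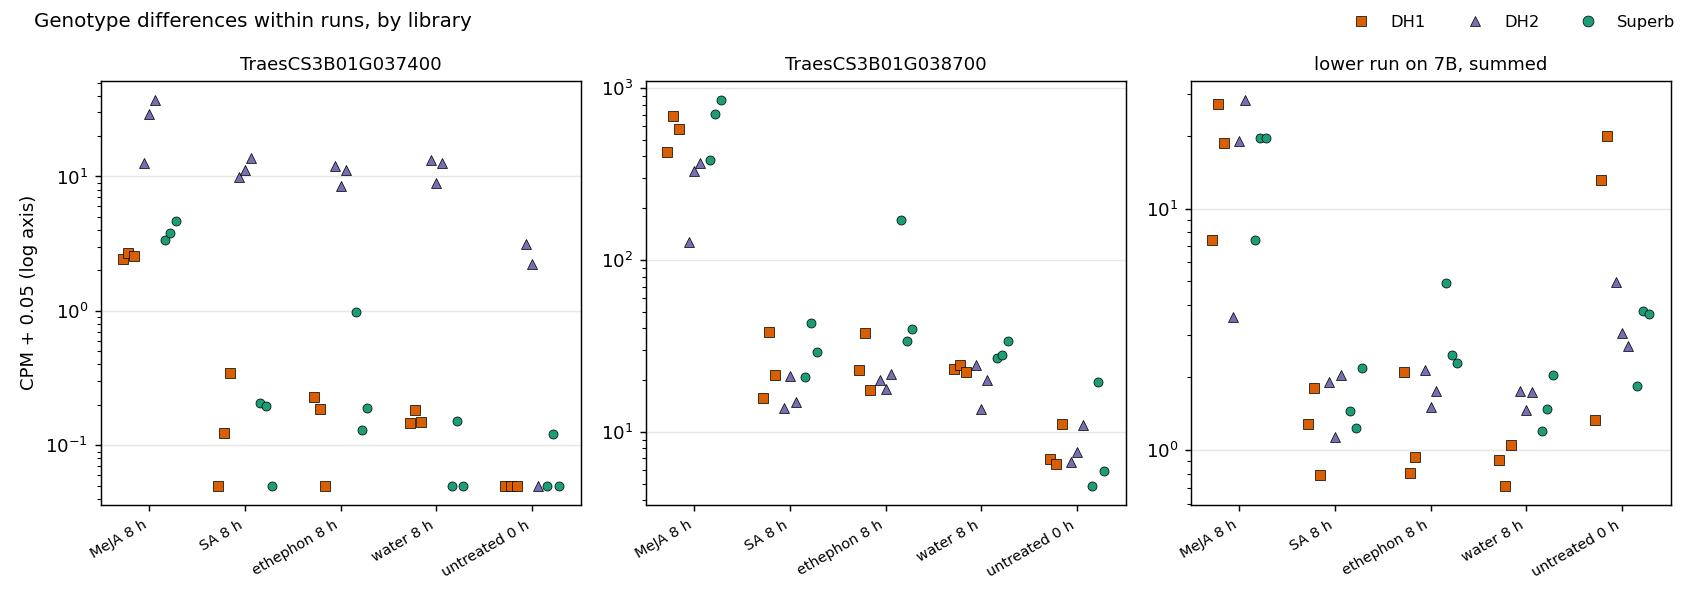
CPM plus 0.05 (log axis) in each library for TraesCS3B01G037400, for TraesCS3B01G038700 and for the sum of the lower run on 7B; each symbol is 1 library. DH2 is apart at 8.49 CPM or more in every sprayed library of TraesCS3B01G037400, and DH1 untreated replicates 2 and 3 of the 7B run, at 13.2 and 20.0 CPM, lie among the MeJA libraries.

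The run on 3B was led by TraesCS3B01G038700, which held 88.8% of its MeJA reads. This gene had 422.2, 688.7 and 580.4 CPM in DH1 after MeJA, against 23.0, 24.5 and 22.4 CPM after water. In DH2 it had 127.8, 327.0 and 363.8 CPM after MeJA, against 24.5, 13.6 and 19.8 CPM after water. In Superb it had 380.1, 709.6 and 853.4 CPM after MeJA, against 26.9, 28.0 and 33.7 CPM after water. The DH2 MeJA group was the lowest of the 3 genotypes, and after water all DH1 and DH2 libraries lay below those of Superb. These differences were not tested. TraesCS3B01G037000 had 29.4, 70.7 and 40.3 CPM in DH1, 7.94, 26.0 and 33.5 CPM in DH2 and 15.4, 55.1 and 66.2 CPM in Superb after MeJA. Over 8 h with SA, TraesCS3B01G038700 rose by 1.61 ± 0.50 in DH1 and by 1.61 ± 0.49 in Superb on the log2 scale, and changed by 0.96 ± 0.51 in DH2, which was not called. Without TraesCS3B01G038700, the log2 ratio of the run, MeJA over water, was 2.84 in place of 3.97.

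SA and ethephon were compared with water as well, with the reservation that these contrasts share their water libraries with the MeJA contrast that chose the members. After SA, 0 members were called in any genotype, with 4 (DH1), 1 (DH2) and 1 (Superb) at an unadjusted p under 0.05 by edgeR and 0 called by DESeq2 in each. The background was 0.105%, 0.0491% and 0.0206% of all tested genes. The summed level after SA was 0.921 to 2.23 times that after water over the 9 runs and 3 genotypes. SA replicate 2 was the highest of its 3 libraries in the runs on 1A and 1D in each genotype, at 1.78 to 3.22 times the mean of the other 2. On 1D, DH1 had 111.3, 346.0 and 103.5 CPM after SA, DH2 106.8, 266.8 and 128.0 CPM and Superb 89.2, 169.7 and 101.9 CPM. Over all 60 members replicate 2 was the highest in 37 (DH1), 34 (DH2) and 27 (Superb), against 34.5%, 32.7% and 35.1% of all tested genes.

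After ethephon, 5 members were called higher in Superb, 4 in the upper run on 4B and 1 on 1D, with a background of 0.0571%. In DH1 and DH2 there were 0 calls (edgeR, 2 and 0 members at an unadjusted p under 0.05, 0 called by DESeq2 in each), with a background of 0.00159% and 0%. The Superb calls rested on replicate 1, which was the highest of the 3 Superb ethephon libraries for 57 of 60 members, against 35.9% of all tested genes. The summed level of the upper run on 4B was 204.0, 21.1 and 20.8 CPM after ethephon in Superb, against 22.2, 19.2 and 20.8 CPM after water. TraesCS4B01G348200 had 60.9, 0.487 and 0.140 CPM after ethephon in Superb, with a log2 fold change over water of 6.41 ± 1.25 (edgeR adjusted p = 0.0283). TraesCS1D01G266200 had 109.6, 5.84 and 4.06 CPM, with a log2 fold change of 3.29 ± 0.63 (edgeR adjusted p = 0.0299). Across runs replicate 1 stood at 20.6% to 46.8% of the mean Superb MeJA level. The 46.8% was on 4A, a run that was already on after water. There replicate 1 had 147.9 CPM, against means of 94.0 CPM after water and 316.2 CPM after MeJA in Superb. Superb ethephon replicate 1 is the library that held genes of DH1, and without it 0 members were called. The log2 fold change of TraesCS4B01G348200 was then 0.55 and that of TraesCS1D01G266200 0.28. The count was also 0 without any 1 of the Superb water libraries, where these log2 fold changes were 5.84 to 6.96 and 3.14 to 3.55, and 8 without ethephon replicate 2. Its part in the result was not tested beyond that.

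Water at 8 h against untreated spikelets, which also uses the water libraries, gave nearly the same counts as SA against untreated. Higher calls numbered 8 in DH1, 8 in DH2 and 5 in Superb, and lower calls 15, 5 and 5. The background was 13.1%, 12.9% and 13.9% of tested genes higher, and 12.5%, 13.8% and 13.6% lower. TraesCS1A01G265600 had 198.6, 130.9 and 199.1 CPM after water in Superb, against 22.6, 44.3 and 2.23 CPM untreated. Superb untreated replicate 2 was the highest untreated Superb library on 1A and 1D, at 128.4 and 87.5 CPM, against 33.4 and 14.3 CPM in replicate 3. In Superb, the 10 calls in either direction became 6 without untreated replicate 3 or without water replicate 3. In DH1, the 23 calls became 15 without water replicate 2.

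The runs also differed in how unevenly the MeJA libraries responded. In all 3 genotypes MeJA replicate 1 was the lowest of its group for nearly all members, in 55 of 60 (DH1), 54 (DH2) and 55 (Superb), against 36.4%, 40.8% and 37.6% of all tested genes. In the lower run on 4B, replicate 1 still reached 85.3% (DH1), 91.3% (DH2) and 83.4% (Superb) of the mean of replicates 2 and 3. In the lower run on 7B it reached 32.1%, 14.9% and 37.6%, and in the upper run on 4B 51.6%, 32.0% and 29.8%. On 1A it reached 60.2%, 23.8% and 34.8%. These libraries are among those that chose the members, so the shares are a description. Across all tested genes, same-numbered MeJA libraries of different genotypes deviated from their group means together, with correlations of 0.0532 to 0.633 in 9 pairs, so the 3 genotypes are not treated as independent repeats of each other.

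The runs, and so their ends, were chosen on MeJA against water, and the genes just outside them are given as a description. Over all tested genes, 16.3% (DH1), 14.3% (DH2) and 12.5% (Superb) were called higher after MeJA, so most genes anywhere were not. The nearest tested gene outside each end, 18 in all, was called higher after MeJA in no genotype in 14 cases, in 1 genotype in 3 and in 2 genotypes (DH1 and DH2) in 1. That gene, before the run on 1D, averaged 1.16 CPM over the 9 MeJA libraries, against 0.023 CPM over the 9 water libraries. Mean log2 fold changes of these outside genes ran from -1.43 to 5.67. The outermost tested members inside the ends had means of 1.16 to 9.34. These values are close to the choice of members and are given without a test.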

How the data were processed

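RNA-seq of 45 spikelet libraries was analysed from the deposited raw read counts per gene, which are unscaled whole numbers. The authors aligned reads with STAR 2.5.3a and also name DESeq2, per the submitters' processing notes. The counting program, strand setting and treatment of multi-mapping reads were not found in the labels. No identifier matched the reference annotation (0 matches, IWGSC CS RefSeq v2.1).

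The analysis used edgeR 4.0.16 in R 4.3.3. filterByExpr kept 63091 genes with 99.73% of counts, TMM scaled the libraries, and a quasi-likelihood fit (glmQLFit, legacy = FALSE) of 15 group means with 30 residual degrees of freedom was tested with glmQLFTest. A call is a Benjamini-Hochberg adjusted p under 0.05 over all tested genes, and every adjusted p printed comes from this fit. CPM uses TMM-scaled library sizes. For SE, the size of the log2 fold change was divided by the root of its F statistic. Limits of a count of 0 are 3 counts over the group and cover counting error only. Steps were tested on simulated data. Alternatives were DESeq2 1.42.0, other scaling, no filter, a replicate block, a stricter threshold and leaving out libraries. Each of the 45 replicate pairs differed beyond sampling noise (lowest chi-square 2.23 per degree of freedom), and all libraries were kept.

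The members and lists were chosen with earlier results of these data known. Named genes are, per run, the 2 members with the highest mean CPM over the 9 MeJA libraries among those called higher in all 3 genotypes, and, per other contrast, the called members with the largest and smallest log2 fold change. TraesCS5B01G443100, TraesCS4B01G060600, TraesCS3B01G037200, TraesCS3B01G037600 and members given only by their place were chosen after their values were seen.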

Additional observations from a re-analysis of the deposited data

How the results depend on the processing

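Each result was compared with its main value once per alternative setting or left-out library, and the numbers here count comparisons. For results over members, 434 comparisons stayed close to the main value and 18 moved. Counts were held to within 1.5 times, and log2 ratios of a run to within the SD of its replicate MeJA libraries, 0.161 for the lower run on 4B. For single named genes, the call was kept in 805 comparisons, lost in 17 and reversed in 0. The 17 comparisons concerned TraesCS4B01G348200 and TraesCS1D01G266200 for ethephon in Superb, and TraesCS7B01G312500 and TraesCS1D01G266100 for water against untreated in DH2.

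For ethephon in Superb the main count was 5. It was 3 with the DESeq2 test, 0 at an adjusted p under 0.01, 0 without the Superb and DH1 ethephon libraries numbered 1, and 0 to 8 when single libraries were left out. For water against untreated, the count at an adjusted p under 0.01 was 6 in Superb (main count 10) and 15 in DH1 (main count 23). Leaving out single libraries gave 6 to 14 in Superb and 15 to 22 in DH1. For SA against untreated in Superb it was 6 at the stricter threshold (main count 10). For the lower run on 7B in DH1, an alternative added after seeing the data, leaving out single libraries gave 3 to 6 lower calls (main count 6). The log2 ratio of the lower run on 4B was 2.78 with CPM on the plain library total (main value 2.97). It was 2.84 on 3B (main value 3.97) and 6.44 on 5B (main value 7.07) without the most abundant member of the run. The cause of these shifts was not tested.

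Between treatments of a genotype, replicate numbers did not pair the samples: of 45 correlations between the deviations of same-numbered libraries, 13 were above 0.1, and they ran from -0.32 to 0.29. Between genotypes of a treatment, 32 of 45 were above 0.1, from -0.07 to 0.63, a hint from the data that same-numbered libraries share something the labels do not give. With the number within each treatment as a block (replicate block within treatment), added after seeing the data, 0 (DH1) and 1 (DH2) members were called against Superb, as without it, and 0 for the difference between genotypes of the change with SA (11 at an unadjusted p under 0.05). With the replicate number as a block (replicate block), the members called were 60 in each genotype for MeJA, 4 for ethephon in Superb, 23 (DH1), 14 (DH2) and 12 (Superb) for water against untreated, and 24, 13 and 10 for SA against untreated. DESeq2 called 58 (DH1), 57 (DH2) and 57 (Superb) members higher after MeJA.

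Depth limits the run on 5B, the lower run on 7B and places 3 to 8 of the upper run on 4B, where water groups hold few counts and folds are wide.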
